A study of Bos taurus with 6 samples.

Results

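The 5 genes described here carry names that mark them as relatives of ribosomal proteins or of the chaperone HSP90. They are LOC782855, LOC613970 and LOC100299317, which are ribosomal protein-like, and LOC783577 and LOC781339, which are HSP90-like. They were chosen by symbol from the 232 rows that the authors listed as different between muscle of Angus and of Luxi cattle, so the difference between the breeds is part of how they were chosen and is given as a description, with no test. RNA was sequenced from muscle of 3 Angus beef cattle and 3 Chinese Luxi cattle, all 18 months old. The labels give breed, age and tissue for these animals, and name no treatment, sex or muscle.

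Ribosomal proteins are the protein part of the small and large ribosomal subunits, and every cell makes them in large amounts, muscle included. HSP90 is an abundant chaperone of the cytoplasm that folds kinases, steroid receptors and, in muscle with the co-chaperone UNC45B, myosin. It has an inducible alpha form, encoded by HSP90AA1, and a constitutive beta form, encoded by HSP90AB1. Messenger RNAs as abundant as these have been copied back into mammalian genomes many times, and most of the resulting intron-free copies are pseudogenes that stay close in sequence to the gene they came from. A short read can then match both a copy and its parent gene. How reads that match several genes were counted is not stated in these sources, so the level of every gene below is uncertain in that respect.

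Of the 5 genes, 4 were higher in Angus and 1 was higher in Luxi. Among all 232 listed rows, 63.4% were higher in Angus and 36.6% were higher in Luxi. The gene similar to ribosomal protein L23a (LOC100299317) had a mean of 49.0 RPKM in Angus in the authors' deposited table and was listed at 0 in Luxi. RPKM is the read count scaled to gene length and to library depth. The gene similar to ribosomal protein S3a (LOC613970) stood in the authors' deposited table at 36.5 RPKM in Angus against 1.46 in Luxi. The S26-like gene (LOC782855) went the other way in the authors' deposited table, with 4.08 RPKM in Angus against 13.6 in Luxi. The HSP90-beta-like gene (LOC783577) and the HSP90-alpha-like gene (LOC781339) had Angus means of 4.05 and 3.56 RPKM in the authors' deposited table, and both were listed at 0 in Luxi. A listing at 0 in Luxi was thus found for 3 of the 5 genes, and for 10.8% of all listed rows.

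**Figure D1:**
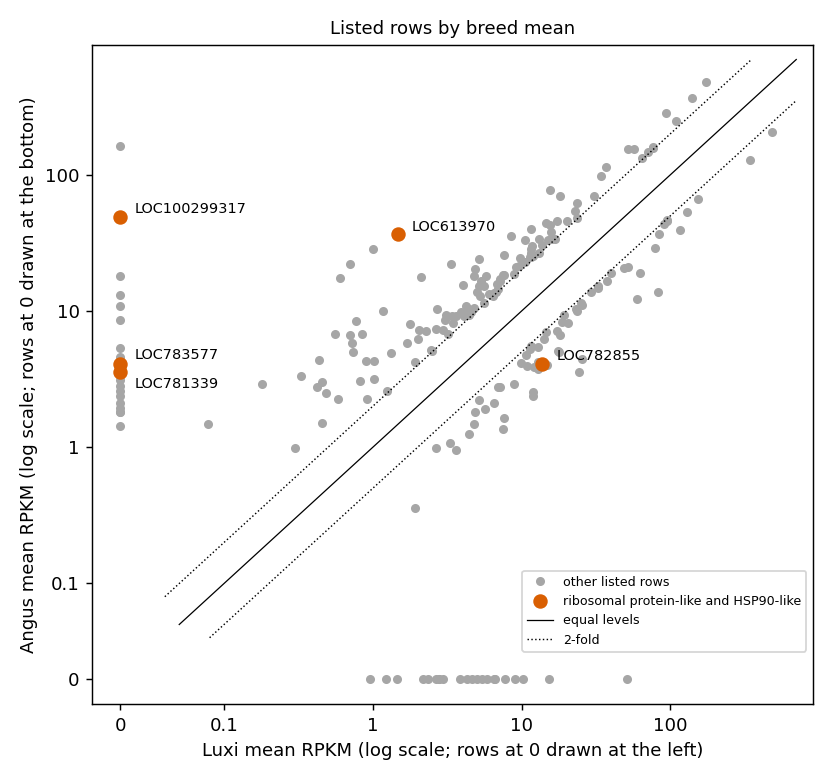
Mean RPKM in Angus (vertical, log scale) against Luxi (horizontal, log scale) for the 232 listed rows, with rows at 0 drawn at the edge; grey points are other rows, orange points the 5 genes, the solid line equal levels and the dotted lines a ratio of 2. Of the orange points, 3 sit at 0 in Luxi, LOC613970 lies far above the upper dotted line at 36.5 against 1.46 RPKM, and LOC782855 lies below the lower one at 4.08 against 13.6 RPKM.

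The deposited values are breed means, but the reads of single libraries could be worked back from them. The mean count gives the sum of reads over 3 libraries, and the mean RPKM weights the reads of each library by its depth, so that only some whole-number splits give both printed values. The recovered depths were 5429320 to 5736364 reads in the Angus libraries and 5799075 to 6047229 reads in the Luxi libraries. Each library is named by its rank in depth within its breed (deepest, middle or shallowest), since the animal behind it is not known. Where several splits remained, each of them or their range is given, because no value in the table chooses between them. Of the marker lists, those for skeletal muscle (0 of 10), blood (0 of 3), immune cells (0 of 4) and endothelium (0 of 3) had no listed gene. For the marker lists, too, no share listed among all genes is known, since only rows that passed the authors' filter were deposited. Muscle genes outside the skeletal muscle list were among the rows, in both directions. The myosin heavy chain genes MYH4, MYH13 and MYH3 were all higher in Angus. Their Angus means in the authors' deposited table were 28.3, 17.6 and 13.8 RPKM, against Luxi means of 1.00, 0.601 and 5.02 RPKM. In the authors' deposited table MYL3, a light chain of slow muscle myosin, had 365 RPKM in Angus against 139 in Luxi. ACTC1, a muscle actin, had 5.08 RPKM in Angus against 17.6 in Luxi in the authors' deposited table. All of these muscle genes were picked for this paragraph after their values were seen.

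The adipocyte list had 2 of its 4 markers listed, and both were higher in Angus, as were 4 of the 5 genes described here and 63.4% of all listed rows. In the authors' deposited table ADIPOQ, an adipokine, had an Angus mean of 15.1 RPKM and a Luxi mean of 5.14 RPKM. CIDEC, a lipid droplet protein, had an Angus mean of 3.69 RPKM in the authors' deposited table and 0 reads in Luxi. Their summed level was 18.8 RPKM in Angus and 5.14 RPKM in Luxi, and PLIN1 and LEP had no row. For ADIPOQ, between 64.9% and 81.9% of all Angus reads fell in the deepest library, and for CIDEC 62.2%. The libraries of the breeds overlapped for ADIPOQ in every split and did not overlap for CIDEC, which was at 0 in Luxi. The part of fat cells in the levels of the 5 genes was not tested. In bulk muscle, a change in cell numbers and a change in RNA per cell cannot be told apart.

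LOC782855 (gene identifier 782855) is annotated as similar to S26, a protein of the small ribosomal subunit that contacts the messenger RNA near its exit from the ribosome. Its listed length was 601 bases. The Angus libraries held 19, 1 and 21 reads from deepest to shallowest, the only split that remained, which is 5.51, 0.298 and 6.44 RPKM (mean 4.08, SD 3.31, n = 3). The middle Angus library was thus nearly without reads of this gene, while the other two were alike. In Luxi the 146 reads had 3 possible splits, which were 47, 91 and 8 reads, 61, 54 and 31 reads, or 75, 17 and 54 reads from deepest to shallowest. The SD over the Luxi libraries was 11.7, 4.18 or 8.08 RPKM in that order, about a mean of 13.6 RPKM (n = 3). In the split of 61, 54 and 31 reads the lowest Luxi library, at 8.89 RPKM, was above the highest Angus library, and in the other splits, with a lowest Luxi library of 2.30 or 4.80 RPKM, the breeds overlapped. Whether the breeds overlap for LOC782855 was therefore not determined.

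The ratio of LOC782855 was 3.34-fold in favour of Luxi, and it ranked as number 16 of the 63 rows that were higher in Luxi and above 0 in both breeds, whose median ratio was 2.62-fold. Without the middle Luxi library it lay between 1.87-fold and 4.43-fold, depending on the split, and without the middle Angus library it was 2.28-fold. It favoured Luxi whichever of the 6 libraries was left out. Its listing rested on the highest FDR of the 5 genes, 3.82e-04 in the authors' deposited table.

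LOC613970 (gene identifier 613970) is annotated as similar to S3a, a protein of the small subunit, and was listed with 880 bases. In Luxi 1 split remained, with 11, 8 and 4 reads from deepest to shallowest, which is 2.07, 1.54 and 0.784 RPKM (mean 1.46, SD 0.645, n = 3). In Angus the 536 reads had 14 possible splits. The middle Angus library held between 96 and 431 of them, the deepest between 23 and 189 and the shallowest between 82 and 251. The lowest Angus library over all splits was at 4.56 RPKM and the highest Luxi library at 2.07 RPKM, so the breeds did not overlap in any split. How evenly the Angus animals contributed stayed unknown, with an SD between 8.47 and 44.9 RPKM about a mean of 36.5 RPKM (n = 3) and between 38.2% and 80.4% of the Angus reads in 1 library.

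The ratio of LOC613970 was 24.9-fold in favour of Angus. It was number 4 among the 122 rows that were higher in Angus and above 0 in both breeds, whose median was 2.67-fold. Without the middle Angus library the ratio lay between 7.41-fold and 30.7-fold. With any other library left out it lay between 19.5-fold and 35.8-fold.

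LOC100299317 (gene identifier 100299317) is annotated as similar to L23a, a protein of the large subunit at the mouth of the tunnel through which the new protein leaves. It had the shortest listed length of the 5, 574 bases. The Luxi libraries held 0 reads each. The 470 Angus reads had 9 possible splits, in which the middle library held between 21 and 352 reads, the deepest between 49 and 213 and the shallowest between 69 and 236. All Angus libraries held reads in every split, the lowest of them at 6.56 RPKM, so no split made the breeds overlap. The SD over Angus libraries was between 8.31 and 52.9 RPKM about a mean of 49.0 RPKM (n = 3).

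A ratio against 0 reads is a lower bound, here set by a floor of 3 reads over the 3 Luxi libraries. For LOC100299317 that floor is 0.295 RPKM, and the gene was at least 166-fold higher in Angus. Among the 25 rows listed at 0 in Luxi it ranked as number 2 by Angus RPKM, behind an EST cluster (a group of expressed sequence tags with no gene symbol) at 163 RPKM in the authors' deposited table. The median of these rows was 3.69 RPKM. Without the middle Angus library the bound of LOC100299317 lay between 62.8-fold and 238-fold.

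LOC783577 (gene identifier 783577), described as the beta form of HSP90, was listed with 2325 bases. The Luxi libraries held 0 reads each, and the 157 Angus reads had 2 possible splits, of 14, 111 and 32 reads or of 68, 2 and 87 reads from deepest to shallowest. In RPKM these are 1.05, 8.56 and 2.54 (SD 3.98) or 5.10, 0.154 and 6.89 (SD 3.49), both with a mean of 4.05 (n = 3). The middle Angus library was thus either by far the highest of the 3 or nearly without reads. The gene was at least 55.6-fold higher in Angus against the floor, a bound that lay between 24.6-fold and 82.4-fold without the middle Angus library and between 36.1-fold and 66.0-fold without the shallowest.

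LOC781339 (gene identifier 781339), described as like the alpha form of HSP90, was listed with 2202 bases. Its Angus reads had 1 split, with 42, 34 and 55 reads from deepest to shallowest, which is 3.33, 2.77 and 4.60 RPKM (mean 3.56, SD 0.939, n = 3). The Luxi libraries held 0 reads each. The Angus libraries were close to each other, with 42.0% of the reads in the library that held most, and every one of them was above every Luxi library. The gene was at least 46.4-fold higher in Angus against the floor, and this lower bound lay between 39.7-fold and 51.6-fold when an Angus library was left out. When a Luxi library was left out the floor of 3 reads fell on 2 libraries, which alone lowered the bound, to between 30.6-fold and 31.2-fold for LOC781339, between 36.7-fold and 37.4-fold for LOC783577 and between 110-fold and 112-fold for LOC100299317.

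**Figure D2:**
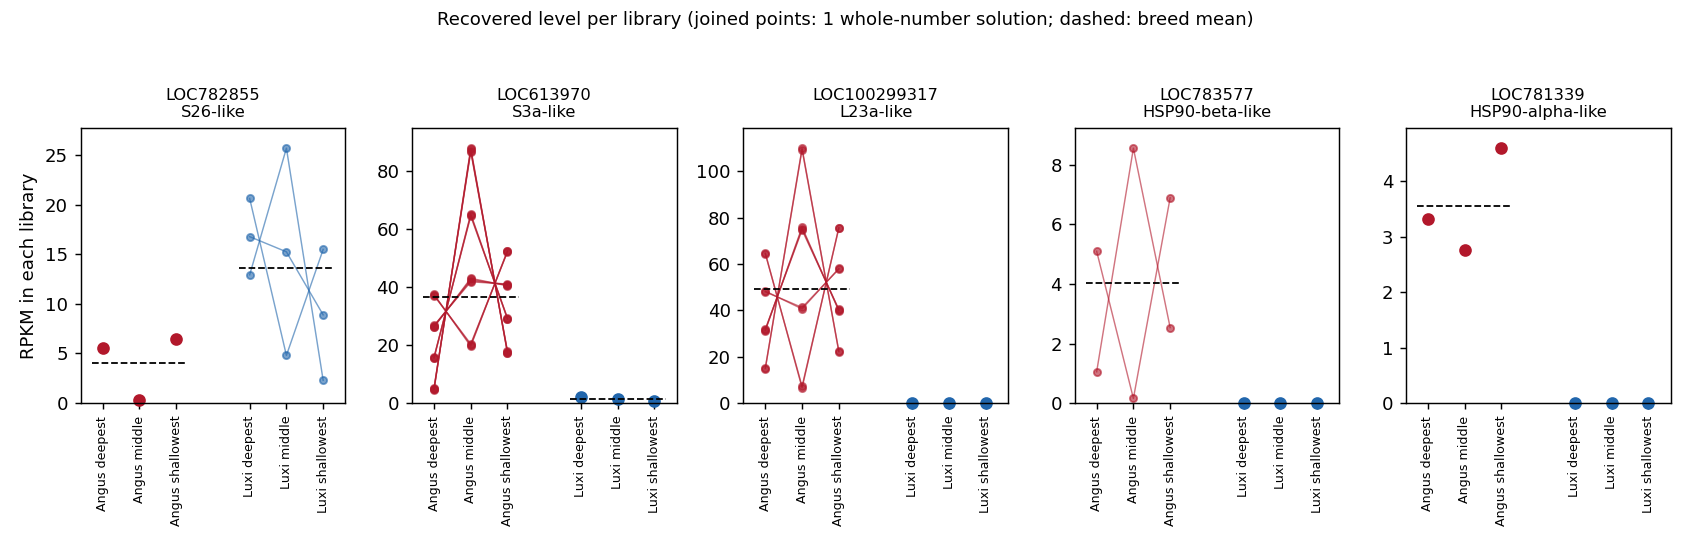
RPKM of each gene in the 3 Angus (red) and 3 Luxi (blue) libraries, ordered by depth; single points are genes with 1 possible split of the reads, joined points each show 1 of several possible splits, and dashed lines are breed means. LOC781339 has Angus libraries between 2.77 and 4.60 RPKM and Luxi libraries at 0, while the splits of LOC783577 place the middle Angus library at 8.56 or at 0.154 RPKM.

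Whether the breeds overlap could be answered for 4 of the 5 genes, all but LOC782855, and in these 4 the libraries of the breeds did not overlap. For LOC100299317, LOC783577 and LOC781339 this largely follows from the 0 reads in Luxi, since any read in every Angus library sets the breeds apart. In the split of 68, 2 and 87 reads, LOC783577 had only 2 reads (0.154 RPKM) in the middle Angus library. Of these 4 genes, only LOC613970 held reads in both breeds. Among the 120 listed rows where every split gave the same answer, 51.7% did not overlap. That share is of rows listed for their difference and is no measure of genes that were not listed. It takes rows at 0 in a breed together with rows above 0 in both, so it is no matching base for the genes at 0 in Luxi.

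**Figure D3:**
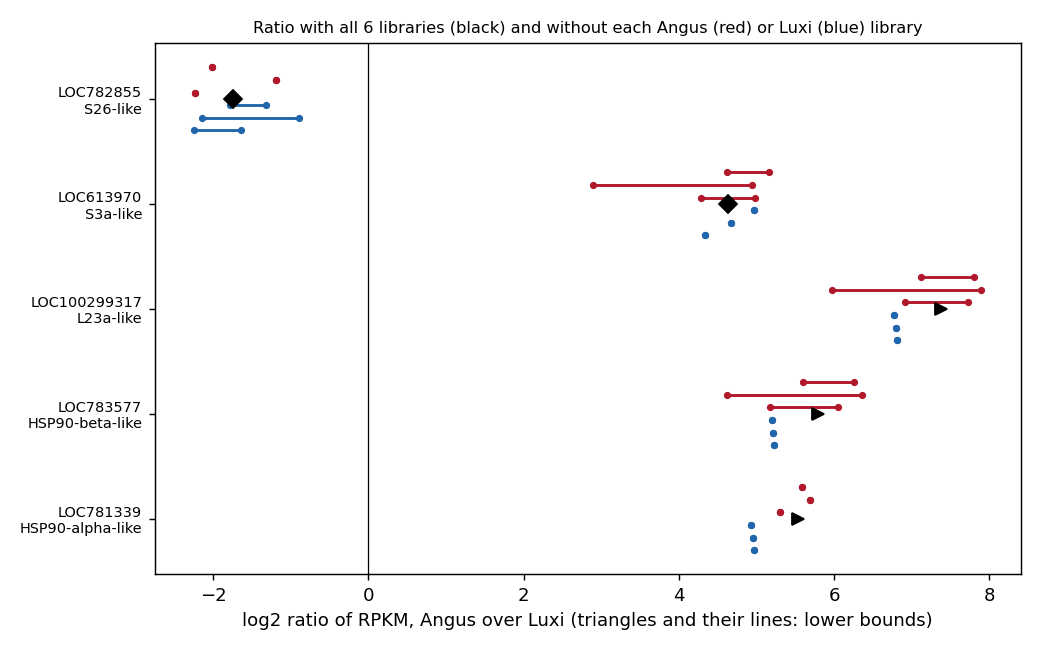
Log2 ratio of RPKM, Angus over Luxi, with all 6 libraries (black; diamonds are ratios, triangles lower bounds) and without each Angus (red) or Luxi (blue) library, where a line spans the possible splits of the reads. LOC782855 stays left of 0 and the other genes right of it, and the widest lines, from 2.89 to 4.94 for LOC613970 and from 5.97 to 7.90 for LOC100299317, are those without the middle Angus library.

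The better known genes of these families were not among the listed rows. None of RPS26, RPS3A, RPL23A, HSP90AB1 and HSP90AA1, which encode the proteins that the 5 genes are named after, had a row (0 of 5). Of the fixed lists, large subunit ribosomal proteins had 0 of 47 genes listed, small subunit ribosomal proteins 0 of 32, the HSP90 family 0 of 4, its co-chaperones 0 of 13, other heat shock proteins 0 of 24 and ribosome assembly factors 0 of 15. Genes without a row were not analysed here, so their levels and the direction of any difference are unknown. Only rows that passed the authors' filter were deposited, so no share listed among all genes can be set beside the counts of these lists. The counts are therefore no result about these families. The list of translation factors had 1 of its 23 symbols listed, EIF4EBP1, which binds the cap-binding protein eIF4E and holds back the start of translation. The authors' deposited table gives it 43.8 RPKM in Angus against 90.4 in Luxi, a ratio of 2.06 in favour of Luxi. Whether its breeds overlap was not determined.

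A search of the descriptions and protein matches for ribosomal protein or heat shock found 1 further row. It is an EST cluster of 627 bases whose deposited protein match is to a protein like L27a of the large subunit. The authors' deposited table gives it 12.2 RPKM in Angus against 59.5 in Luxi, 4.90-fold in favour of Luxi, the same direction as LOC782855. Its Angus reads had 2 possible splits, of 43, 60 and 25 or of 44, 58 and 26 reads from deepest to shallowest. The 666 Luxi reads had 18 possible splits, with between 45.6% and 62.0% of them in 1 library. In these the middle Luxi library lay between 2.98 and 103 RPKM. The overlap of the breeds was not determined for this cluster. Of the ribosomal protein-like rows, LOC613970 and LOC100299317 were thus higher in Angus, and LOC782855 and this cluster higher in Luxi. Among all listed rows 63.4% were higher in Angus. The breeds did not overlap for LOC613970 and LOC100299317, and for LOC782855 and the cluster this was not determined. So few rows, listed for a difference, give no result about the direction of such genes.

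A pair of other rows is also named after abundant proteins, and both were picked after their values were seen. LOC783838, described as translation elongation factor 1 alpha 1, which brings aminoacyl-tRNA to the ribosome, held 4, 46 and 23 reads in the Angus libraries from deepest to shallowest and 0 reads in Luxi. Its level in Angus was 0.412, 4.87 and 2.50 RPKM (mean 2.60, SD 2.23, n = 3), a log2 ratio of at least 4.70 over the Luxi floor. LOC780981, like the Rieske subunit of respiratory complex III, had 20.4 RPKM in Angus against 4.82 in Luxi in the authors' deposited table, a ratio of 4.22 in favour of Angus, with its overlap not determined. Rows with a LOC symbol were listed at 0 in either breed in 7 of 23 cases, which include 3 of the 5 genes, rows with another symbol in 21 of 140 and rows without a symbol in 19 of 69, against 20.3% of all listed rows.

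The annotation differs among the 5 genes. By gene identifier, 3 of them matched the RefSeq gene table of assembly ARS-UCD2.0, where LOC782855 and LOC783577 are entered as pseudogenes and LOC781339 as protein coding. LOC613970 and LOC100299317 had no match there. LOC783838 is a transcribed pseudogene in the same table. In the authors' deposited table, gene ontology terms were given for 3 of the 5, translation for LOC782855 and LOC100299317 and protein folding for LOC781339, and no protein match was given for any of them.

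The rows closest to each gene were found by the distance between log2 RPKM values, among rows at 0 in the same breed or above 0 in both. For LOC782855 and LOC613970 the distance is over both breeds. A breed at 0 was left out, so for LOC100299317, LOC783577 and LOC781339 the distance is the difference in Angus alone. Distances of these 3 genes are therefore not comparable with those of LOC782855 and LOC613970. LOC782855 lay closest to the lactonase gene PON3 (distance 0.10) and to TMEM52 (0.13) of 183 rows. LOC613970 lay closest to MYH4, a fast myosin heavy chain, at a distance of 0.66, and the histone gene HIST1H2AA followed at 1.15. LOC100299317 had no close row among 22, with the glyoxalase gene GLO1 nearest, at a distance of 1.45. LOC783577 lay closest to LOC100141470, similar to an immunoglobulin kappa chain (0.01), and to an EST cluster (0.03), and LOC781339 to an EST cluster (0.02) and to the lipid droplet gene CIDEC (0.05).

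Rows alike in their means could be alike or unlike in how the Angus libraries made them up. The EST cluster close to LOC783577 held 3, 42 and 9 reads in the Angus libraries from deepest to shallowest, with 77.8% in the middle library. That order of libraries is also the order in the split of 14, 111 and 32 reads of LOC783577, with 70.7% in the middle library, but not in its split of 68, 2 and 87 reads. LOC100141470 held 61, 1 and 5 reads in the Angus libraries from deepest to shallowest, and CIDEC held 56, 31 and 3, so the deepest library held 91.0% and 62.2% of their Angus reads. LOC781339, at nearly the same mean as CIDEC, had its highest level in the shallowest Angus library. Neither split of LOC783577 had its highest level in the deepest library, unlike LOC100141470.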

How the data were processed

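Muscle RNA of 3 Angus and 3 Luxi cattle was sequenced. Per the labels' protocols, RNA was extracted with Trizol and libraries followed standard Illumina methods for the HiSeq2000. Not given in the sources used here are the aligner, gene set, genome build, strandedness and statistical test. The authors deposited 1 table of the 232 rows that passed their filter (largest FDR 9.67e-04, smallest absolute log2 ratio 1.00, per the file headers), with gene length, p-value and FDR. Its mean counts are means over 3 libraries, since 417 of 417 values above 0 were multiples of 1/3 within rounding. Its RPKM values are deposited as breed means, with 0.001 in place of 0, which was read as 0. The deposited log2 ratio is that of Luxi over Angus and was turned to Angus over Luxi.

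Reads per library were found by a search (Python 3.11.15, numpy 2.4.6, scipy 1.17.1, numba 0.67.0) for depths at which every row with a low read sum has a whole-number split that gives the printed mean RPKM to 6 significant digits. In each breed 1 set of depths was found, each depth to within 4 reads. A single split remained for 77 of 210 Angus rows and 56 of 207 Luxi rows with reads. The search was tested on simulated data: in 2 tables the depths were within 1 read, the true reads were among the splits of 318 of 318 rows examined, and 139 of 139 single splits were true. Against 0 reads, a floor of 3 reads over the 3 libraries was used, and it covers counting error only, since PCR copies of a molecule could not be removed without molecular identifiers.

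The members, 7 gene lists and the rules for named rows were chosen with earlier results of these data known. Named rows are the 5 genes, the 2 rows closest to each, rows in a list and rows whose text names a ribosomal or heat shock protein. LOC783838, LOC780981, MYL3, MYH3, MYH13 and ACTC1 fall outside these rules and were picked after their values were seen.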

Additional observations from a re-analysis of the deposited data

How the results depend on the processing

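The direction of all 5 ratios held in every alternative run, as did the counts of 4 genes higher in Angus and 3 listed at 0. All 5 genes came from rows listed for a difference, and for those at 0 in Luxi the runs had little room to reverse it. The stable direction is therefore no independent check. Of 73 alternative log2 values, 48 lay within 1 SD of the full value and 25 did not, where the SD is the smallest that any split of the reads allows. That SD combines the spread of both breeds on the log2 scale, and a breed at 0 adds nothing to it. It ran from 0.245 for LOC100299317 to 1.25 for LOC782855. The count of 48 therefore depends on how much the libraries of each gene varied and is no measure of how stable a ratio is. Each run without 1 library entered with its lowest and its highest value over the splits. Where only 1 split remained these are the same value counted again, so the 73 are not separate runs. A floor of 3 reads in each Luxi library gave log2 bounds of 5.79 for LOC100299317, 4.21 for LOC783577 and 3.95 for LOC781339, against 7.38, 5.80 and 5.54. The scale log2(RPKM + 1) gave 5.64, 2.34 and 2.19 in the same order. Leaving out 1 library at a time gave log2 ratios from -2.24 to -0.90 for LOC782855 and from 2.89 to 5.16 for LOC613970. For the bounds it gave 5.97 to 7.90 for LOC100299317, 4.62 to 6.36 for LOC783577 and 4.93 to 5.69 for LOC781339. Lower bounds with a higher floor or with the floor on 2 Luxi libraries follow from that choice. The smaller values on the scale log2(RPKM + 1) likewise follow from the added 1 RPKM. Other shifts without 1 library follow from the reads that library held, and why the libraries of a breed differed was not tested. No paired analysis was possible because the labels give no pairing of animals and the table holds breed means. The planned comparison of protein sequences was not run. Depth limits a Luxi listing at 0 to the floor of 3 reads.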
